A study of Mus musculus with 18 samples.

Results

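Hearts of mice labelled as carrying a cardiac-specific Med13 knockout (cKO) were compared with wild-type (WT) hearts after both had been made short of thyroid hormone by a diet with propylthiouracil (PTU). The comparison holds 6 of the 18 polyA RNA-seq libraries of the series, chosen by their genotype and treatment labels: 3 cKO hearts on PTU and 3 WT hearts on PTU. All were hearts of C57BL/6 mice aged 12 weeks, and the diet was given for 4 weeks from 8 weeks of age. The other 12 libraries, from cKO and WT hearts on PTU followed by 3 daily injections of triiodothyronine (T3) or on normal chow, 3 in each group, entered the estimate of the spread and are used below to set the PTU difference beside the difference on those treatments. The labels name neither the Cre driver of the knockout nor the alleles that the WT mice carried. Whether every library is 1 animal is not stated, and the p-values then describe the spread among these libraries, some of which can be technical.

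Mediator is a large protein complex that passes signals from DNA-bound transcription factors to RNA polymerase II. MED13 joins the core of the complex to its kinase module, in which cyclin C activates CDK8 or CDK19 and MED12 supports that activity; MED13L, MED12L and CDK19 are the products of paralogous genes. In the heart, the nuclear receptors THRA and THRB switch genes on when T3 is bound and can repress the same genes when it is not. PTU blocks the synthesis of the hormone in the thyroid, and the mouse ventricle then exchanges the fast alpha myosin heavy chain (Myh6) for the slow beta chain (Myh7). The comparison asks whether hearts labelled cKO differ from WT hearts in that hormone-poor state. Levels are FPKM values, read counts scaled for transcript length and library size, and the hearts of a group are given in the order 1, 2 and 3. A difference is cKO minus WT on the log2(FPKM + 1) scale, so it is positive where the cKO hearts were higher, and for genes of low level it is smaller than the change in FPKM itself.

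No gene passed the test between cKO and WT hearts on PTU. Of 12587 genes that reached 1 FPKM in 3 or more libraries, limma called 0 (0%) at a Benjamini-Hochberg adjusted p under 0.05, and the smallest adjusted p was 0.911. At an unadjusted p under 0.05 it listed 491 genes (3.9%), 229 higher (1.82%) and 262 lower (2.08%) in cKO hearts. All 3 cKO hearts lay above all 3 WT hearts for 433 genes (3.44%) and below them for 514 genes (4.08%). The authors' deposited table of the same comparison marked 117 of 12318 genes (0.95%) as significant, 86 higher (0.698%) and 31 lower (0.252%) in cKO.

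The precision of the comparison can be given gene by gene. The 95% confidence interval of the difference, unadjusted for the number of genes, lay wholly within a 1.5-fold change of FPKM + 1 in either direction for 10331 genes (82.1%) and within a 2-fold change of FPKM + 1 for 12052 genes (95.75%). For genes of low level that bounds the fold change of FPKM itself less tightly. The median standard error was 0.124 on the log2 scale. A difference of over 1 in size was seen for 27 genes, and for 20 when cKO heart 2 was left out.

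**Figure D1:**
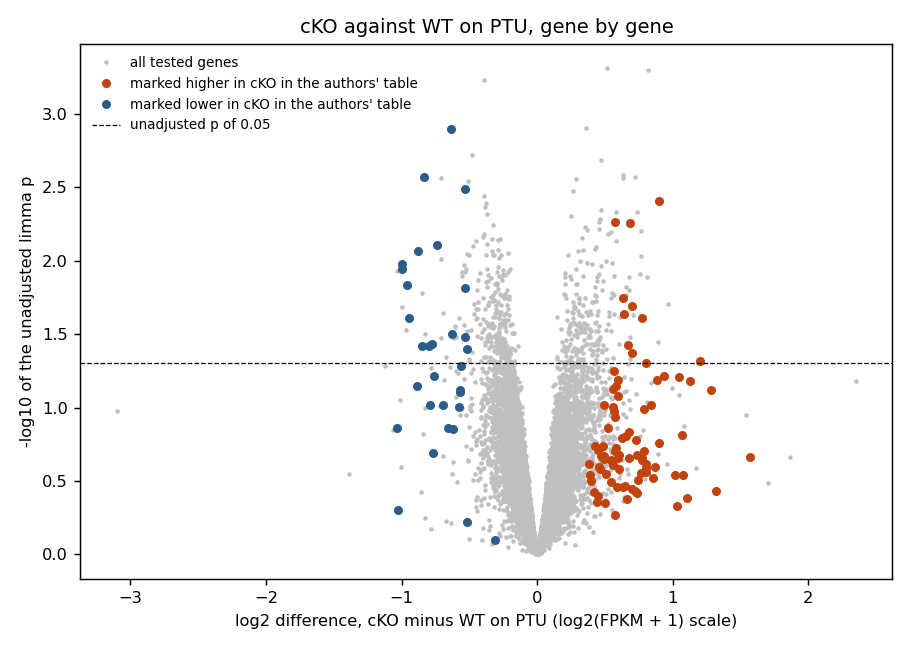
Difference between cKO and WT hearts on PTU (x axis, log2(FPKM + 1) scale, positive where cKO was higher) against the negative log10 of the unadjusted limma p (y axis) for the 12587 tested genes in grey. Genes marked in the authors' deposited table are coloured, 84 higher (orange) and 31 lower (blue) in cKO; many of them lie under the dashed line at an unadjusted p of 0.05, and the smallest adjusted p of any gene was 0.911.

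Single hearts stood apart in ways that touch these results. In cKO heart 2, 104 genes were more than 2-fold above all of the other 5 PTU hearts in FPKM + 1, against 2 to 7 genes in each of those. By any margin, cKO heart 2 was the highest heart for 21.6% of all tested genes, and WT heart 3 for the largest share, 26.9%. The median Pearson correlation of cKO heart 2 with the other hearts, across genes, was 0.975, and those of the others lay between 0.986 and 0.987. WT heart 1 and cKO heart 3 were high in genes of atrial muscle: Myl7, the atrial myosin light chain, had 22.9, 49.2 and 799 FPKM in the cKO hearts, against 1075, 119 and 20.1 FPKM in the WT hearts. Over the 14 tested of 15 atrial markers the mean log2(FPKM + 1) was 3.70, 4.22 and 5.65 in the cKO hearts and 6.17, 4.38 and 3.39 in the WT hearts, and their summed level ran from 3379 to 10400 FPKM in cKO and from 1775 to 7230 FPKM in WT, most of it Nppa. Bmp10, an atrial growth factor, stood at the table's floor of 0.01 FPKM in WT hearts 2 and 3 and at 61.4 FPKM in WT heart 1. WT heart 1 was also the highest in S100a8 and S100a9, proteins of neutrophils, and in red cell genes. The 10 cardiomyocyte markers were all present in every heart and the 8 markers of thymus and lung fell below the filter. From whole hearts, fewer cells of a type and less RNA per cell cannot be told apart.

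Relative depth, read from the steps between low values, lay between 0.749 and 1.13 times that of WT heart 1 in the PTU libraries, and 11677 to 12049 genes reached 1 FPKM in them.

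**Figure D2:**
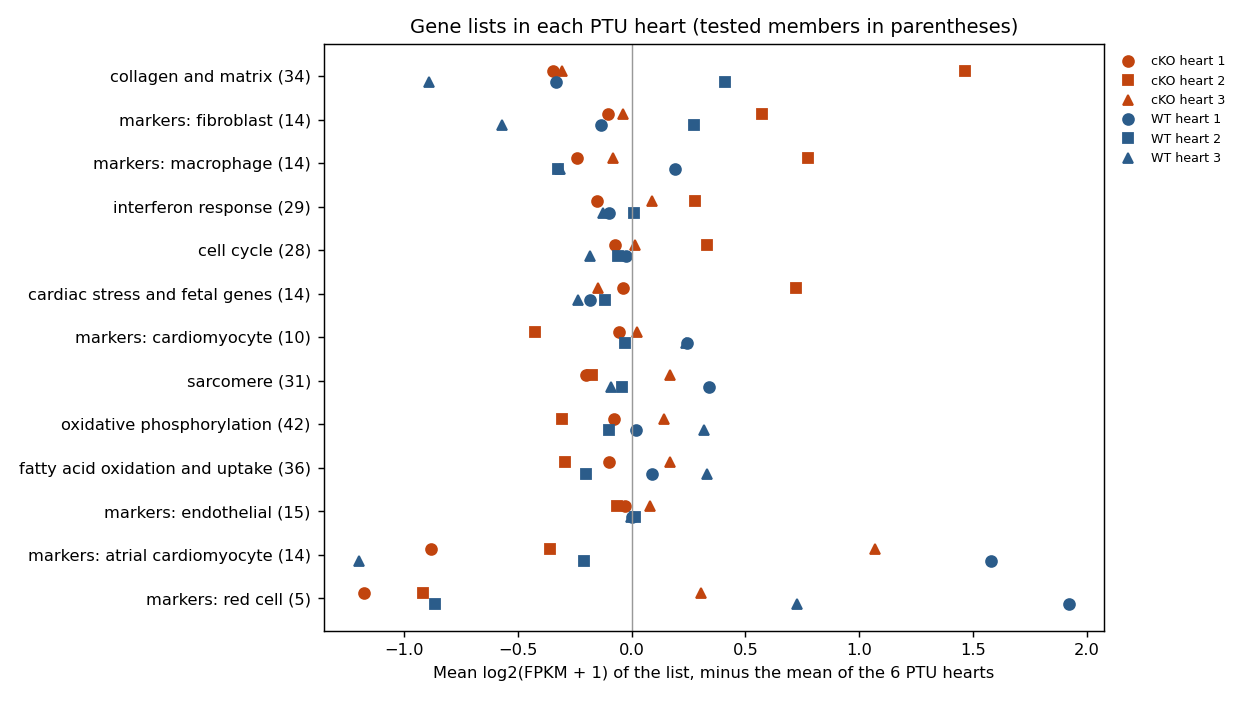
Mean log2(FPKM + 1) of each gene list in each PTU heart, given as the distance from the mean of the 6 hearts (x axis), with the number of tested members in parentheses; cKO hearts (orange) are drawn above WT hearts (blue) and the marker shape gives the heart. The square of cKO heart 2 stands to the right of every other heart for collagen and matrix genes (5.27 against 2.92 to 4.22) and for macrophage markers, and WT heart 1 stands furthest right for atrial and red cell markers.

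Med13 itself (chromosome 11, 86267033 to 86357602 of the GRCm38 annotation) did not separate the genotypes on PTU. It had 6.05, 4.93 and 5.04 FPKM in the cKO hearts, against 6.55, 5.57 and 6.96 FPKM in the WT hearts. The mean was 5.34 ± 0.618 FPKM in cKO and 6.36 ± 0.716 FPKM in WT (SD, n = 3 each), and cKO heart 1 lay above WT heart 2. The difference was -0.21 (SE 0.108), with a 95% interval from -0.44 to 0.013 and a limma adjusted p of 0.911. On PTU with T3 and on chow the difference had the other sign, 0.10 and 0.077, and neither change between treatments was called (limma adjusted p = 0.696 and 0.764). The level of the whole gene therefore does not check the genotype labels: values per exon were not analysed here, and reads of the antisense gene Brip1os may be counted with it. The hearts are called cKO by their label, and every direction below rests on that label.

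None of the other 6 subunit genes of the kinase module passed the test. The paralog Med13l had 6.38, 5.04 and 5.36 FPKM in the cKO hearts, against 5.90, 6.18 and 6.13 FPKM in the WT hearts (difference -0.11 (SE 0.0991)). Cdk8, one of the kinases, had 8.25, 8.88 and 9.10 FPKM in the cKO hearts, against 9.96, 9.51 and 8.93 FPKM in the WT hearts (-0.10 (SE 0.0878)). For the other kinase Cdk19 the difference was -0.022 (SE 0.0803), for its cyclin Ccnc -0.063 (SE 0.106), for Med12 -0.088 (SE 0.0883) and for Med12l 0.17 (SE 0.153). The signs of Cdk19 and Ccnc turned without cKO heart 2 (0.044 and 0.025), that of Cdk19 also without WT heart 3 (0.0081), and that of Med12l without cKO heart 1 (-0.0025). The limma adjusted p of the 7 genes lay between 0.911 and 0.975, and for each of them the 2 groups overlapped. In the head, middle and tail of the complex, 0 of 26 subunit genes had an unadjusted p under 0.05, the median difference was -0.029, and that of all tested genes was -0.012. Only Med25, a tail subunit, kept its groups apart, at 36.8, 37.4 and 38.3 FPKM in the cKO hearts, against 41.98, 43.3 and 39.7 FPKM in the WT hearts. Of all tested genes 4.08% had all cKO hearts below the WT hearts. Among 85 tested genes within 5 Mb of Med13 on chromosome 11, 1 was higher and 1 lower at an unadjusted p under 0.05, with a median of -0.014. At that p 1.82% of all tested genes were higher and 2.08% lower.

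The myosin heavy chains, the best known hormone targets of the mouse ventricle, were expressed in the PTU pattern in all 6 hearts, with Myh7 above Myh6 in each. These genes also carry microRNAs in their introns, and miR-208a, from Myh6, is known to target Med13. Their mature sequences (RefSeq, GRCm38.p6) are shown to compare their seeds, bases 2 to 8, given in capitals:
mmu-miR-208a-3p: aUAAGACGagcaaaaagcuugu
mmu-miR-208b-3p: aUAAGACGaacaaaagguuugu
mmu-miR-499-5p: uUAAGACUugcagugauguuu
The seeds of miR-208a and miR-208b are the same, and that of miR-499 is not identical to them. The seed is UAAGACG in miR-208a, inside Myh6 (chr14:54949072-54949093, minus strand), and in miR-208b, inside Myh7 (chr14:54975710-54975731, minus strand). It is UAAGACU in miR-499, inside Myh7b (chr2:155622893-155622913, plus strand). The microRNAs were not measured in these polyA libraries, and the values below are those of their host genes.

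Myh6 had 148, 137 and 259 FPKM in the cKO hearts, against 404, 208 and 106 FPKM in the WT hearts. The highest and the lowest value both belonged to WT hearts, the highest to WT heart 1, the heart highest in the atrial markers. The difference was -0.25 (SE 0.367), with an interval from -1.04 to 0.53; it turned to 0.22 without WT heart 1. Myh7 had 2456, 1662 and 3019 FPKM in the cKO hearts, against 3088, 2599 and 3642 FPKM in the WT hearts. Its groups overlapped through cKO heart 3 and WT heart 2, and the difference was -0.42 (SE 0.251), or -0.18 without cKO heart 2. Reads of the antisense Mhrt cannot be told apart from it. Myh7b, a slow myosin named after its values were seen because it holds miR-499, had 23.5, 15.2 and 21.8 FPKM in the cKO hearts, against 26.7, 24.96 and 42.4 FPKM in the WT hearts. All 3 cKO hearts lay below the WT hearts (difference -0.60 (SE 0.254), limma adjusted p = 0.911).

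Of the calcium cycling genes under hormone control, neither passed the test. Atp2a2, which pumps calcium into the sarcoplasmic reticulum, had 1055, 895 and 1479 FPKM in the cKO hearts, against 1835, 1106 and 1859.7 FPKM in the WT hearts. WT heart 2 lay below cKO heart 3, so the groups overlapped, and the difference was -0.48 (SE 0.269), with an interval from -1.05 to 0.093. Pln, the inhibitor of that pump, had 4054, 2753 and 3888 FPKM in the cKO hearts, against 4384, 3722 and 5076 FPKM in the WT hearts (-0.31 (SE 0.193)). Of these differences, that of Pln was -0.13 without cKO heart 2 and that of Atp2a2 -0.32.

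Genes that T3 switches on did not pass the test either. Hr, a corepressor that is a direct target of the receptors, had 1.03, 1.41 and 1.62 FPKM in the cKO hearts, against 1.15, 1.43 and 0.368 FPKM in the WT hearts (0.28 (SE 0.171), or 0.035 without WT heart 3, the lowest). The pacemaker channel Hcn2 had 1.96, 2.94 and 2.76 FPKM in the cKO hearts, against 1.72, 1.96 and 1.94 FPKM in the WT hearts (0.29 (SE 0.200)). Ucp3, a mitochondrial carrier, had 2.44, 1.49 and 3.41 FPKM in the cKO hearts, against 2.47, 1.67 and 1.96 FPKM in the WT hearts (0.15 (SE 0.308)), a difference that turned to -0.044 without cKO heart 3. Groups touched or overlapped for all 3 genes, with limma adjusted p between 0.911 and 0.947. The receptor gene Thra had 57.4, 46.2 and 51.5 FPKM in the cKO hearts, against 52.3, 59.8 and 55.4 FPKM in the WT hearts (-0.11 (SE 0.0880)), and Thrb had 4.63, 3.42 and 3.73 FPKM in the cKO hearts, against 4.12, 3.94 and 3.89 FPKM in the WT hearts (-0.024 (SE 0.145), with a sign that turned to 0.051 without cKO heart 2 and 0.0019 without cKO heart 3). Reads of Nr1d1 overlap Thra on the other strand.

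As lists, 19 tested genes that the hormone induces in heart had a median difference of -0.025, or 0.023 without cKO heart 2 and 0.035 without WT heart 3, with 0 at an unadjusted p under 0.05. The 10 genes that it represses had a median of -0.24, or -0.093 without cKO heart 2 and -0.15 without WT heart 3; 1 of them, Myh7b, was lower at an unadjusted p under 0.05. The 12 tested genes of receptors, transport and cofactors had a median of -0.077, or -0.015 without cKO heart 2, with 0 at that p. Hormone-dependent genes were also taken from the other 12 hearts. Of the 4378 genes (34.8%) that limma called for PTU with T3 against chow, those with a log2 change of at least 1 were used, a contrast that shares no heart with the PTU comparison. The 93 that were higher with T3 had a median difference of 0.07 between cKO and WT on PTU, 7 higher and 1 lower at an unadjusted p under 0.05. At that p 1.82% of all tested genes were higher and 2.08% lower. The 72 that were lower with T3 had a median of -0.13 (2 higher and 4 lower), or -0.073 without cKO heart 2 and -0.049 without WT heart 3.

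**Figure D3:**
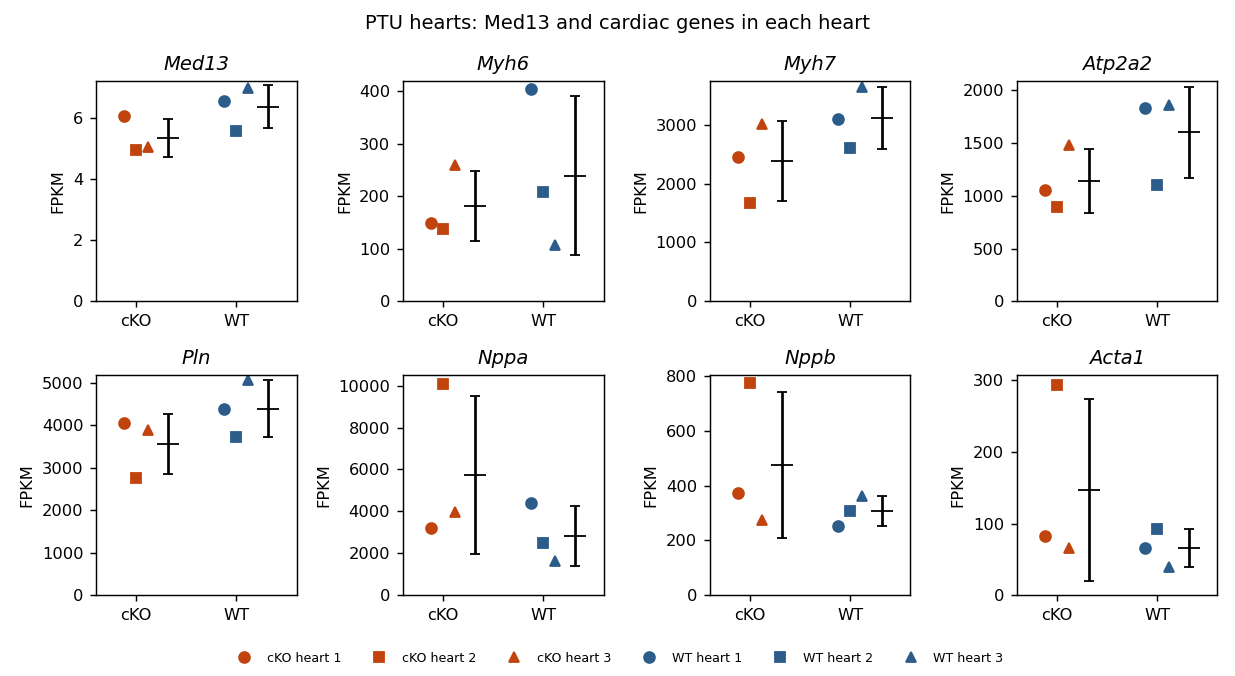
FPKM of Med13 and 7 cardiac genes in each PTU heart, cKO (orange) left of WT (blue); marker shapes give hearts 1, 2 and 3, and the bar beside each group is its mean ± SD of 3 hearts, on linear axes from 0. The groups overlap in every panel, and cKO heart 2 (square) is the highest heart for Nppa, Nppb and Acta1 and the lowest for Myh7, Atp2a2 and Pln.

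Genes of cardiac strain were high in 1 cKO heart. Nppa, atrial natriuretic peptide, had 3206, 10081 and 3955 FPKM in the cKO hearts, against 4388, 2467 and 1609.7 FPKM in the WT hearts. Nppb, its ventricular relative, had 373, 777 and 277 FPKM in the cKO hearts, against 252, 309 and 363 FPKM in the WT hearts. Acta1, skeletal alpha-actin of the fetal and stressed heart, had 82.6, 294 and 65.4 FPKM in the cKO hearts, against 66.1, 92.01 and 39.8 FPKM in the WT hearts. In all 3 genes cKO heart 2 was the highest, and the other 2 cKO hearts lay within the range of the WT hearts for Nppa and Acta1. The differences were 0.96 (SE 0.786), 0.50 (SE 0.637) and 0.89 (SE 0.626), and they were 0.46, 0.075 and 0.23 without cKO heart 2. The whole list of 14 tested stress and fetal genes had a median of 0.23, or -0.0015 without that heart, which was the highest for 12 of them.

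Gdf15, a secreted stress cytokine, was the 1 of these 14 genes whose groups stayed apart. Of all tested genes 3.44% had all cKO hearts above the WT hearts. It had 3.91, 8.94 and 3.25 FPKM in the cKO hearts, against 1.17, 1.57 and 1.57 FPKM in the WT hearts. Each cKO heart lay above each WT heart, and the difference was 1.28 (SE 0.670), or 0.91 without cKO heart 2 (limma adjusted p = 0.911). The authors' deposited table gave 5.62 FPKM for cKO and 1.49 FPKM for WT and marked it as significant (q = 0.00844).

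Transcripts of the muscle cell itself lay on the other side. All 10 cardiomyocyte markers had a difference below 0, with a median of -0.37, against -0.012 for all tested genes, of which 53.8% were below 0. In 3 of the 10 all cKO hearts lay below the WT hearts, as in 4.08% of all tested genes. Actn2, alpha-actinin of the Z disc, had 674, 714 and 838 FPKM in the cKO hearts, against 985, 854 and 1044 FPKM in the WT hearts (-0.37 (SE 0.126)). Ryr2, the calcium release channel, had 58.3, 49.4 and 52.05 FPKM in the cKO hearts, against 80.4, 58.8 and 77.7 FPKM in the WT hearts (-0.42 (SE 0.175)). Tnnt2, cardiac troponin T, had 9192, 7036 and 8893 FPKM in the cKO hearts, against 10859, 9241 and 12757 FPKM in the WT hearts (-0.38 (SE 0.208)). In these 3 genes every cKO heart was below every WT heart, yet none passed the test (limma adjusted p = 0.911 for each). The nearest WT heart was WT heart 2 in each, and the highest cKO heart lay only just below it. The median of the list was -0.18 without cKO heart 2 and -0.25 without WT heart 3. With upper-quartile scaling it was -0.34, and with quantile normalization, which gives all libraries the same distribution of values, it was -0.20. The summed level of the list ran from 38490 to 60500 FPKM in cKO and from 56510 to 76300 FPKM in WT.

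The 31 sarcomere genes had a median of -0.14 (0 higher and 2 lower at an unadjusted p under 0.05). That median was -0.11 with upper-quartile scaling and -0.066 with quantile normalization. The 23 calcium handling genes had a median of -0.022 (2 higher and 1 lower). Those higher were Itpr1, an inositol trisphosphate receptor, with 10.99, 9.26 and 9.70 FPKM in the cKO hearts, against 8.00, 9.21 and 7.67 FPKM in the WT hearts, and Casq1, a calsequestrin of skeletal muscle, whose highest heart was cKO heart 2 at 33.2 FPKM. Among 29 tested ion channel genes 0 were higher and 3 lower at that p, against 1.82% and 2.08% of all tested genes. Kcne1, a subunit of the slow delayed rectifier potassium channel, had 2.92, 2.87 and 2.63 FPKM in the cKO hearts, against 6.23, 3.71 and 6.49 FPKM in the WT hearts. Its 3 cKO values lay close together and below all WT values, with a difference of -0.74 (SE 0.242), and of -0.75 without cKO heart 2. The other channel genes were Kcnj11, the pore of the ATP-sensitive potassium channel (-0.54 (SE 0.220)), and Gja1, connexin 43 (-0.24 (SE 0.109)). The authors' deposited table marked Kcne1 and the potassium channel Kcnd2 as lower in cKO.

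Adrenergic and muscarinic signalling had 3 genes higher and 3 lower of 24 tested at an unadjusted p under 0.05, where all tested genes had 1.82% and 2.08%, with a median of 0.015. Adra1a, an alpha-1 adrenergic receptor, had 0.812, 0.526 and 0.733 FPKM in the cKO hearts, against 3.42, 0.802 and 3.26 FPKM in the WT hearts: cKO heart 1 lay just above WT heart 2, and the other WT hearts lay well above all 3 cKO hearts (-0.94 (SE 0.377)). Its relative Adra1b had a difference of -0.38 (SE 0.153) and the phosphodiesterase Pde3a one of -0.41 (SE 0.173). The higher genes included the phosphodiesterase Pde4b (0.27 (SE 0.105)) and the phosphatase inhibitor Ppp1r1a (0.43 (SE 0.166)). For each gene named here the limma adjusted p was 0.911.

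Differences in metabolic genes were small. All 42 oxidative phosphorylation genes had a difference below 0, as did 53.8% of all tested genes, with a median of -0.16, but 0 had an unadjusted p under 0.05 and 0 kept their groups apart. Their mean log2(FPKM + 1) was 9.79, 9.56 and 10.01 in the cKO hearts and 9.89, 9.77 and 10.19 in the WT hearts: cKO heart 2 was the lowest, WT heart 3 the highest, and cKO heart 3 lay above WT hearts 1 and 2. The median was -0.04 without cKO heart 2 and -0.048 without WT heart 3. It was -0.13 with upper-quartile scaling and -0.042 with quantile normalization. Genes of fatty acid oxidation and uptake had a median of -0.22 over 36 members, which was -0.085 without cKO heart 2 and -0.043 without WT heart 3. With the same scalings it was -0.19 and -0.13. At an unadjusted p under 0.05, 2 members were higher and 2 lower, against 1.82% and 2.08% of all tested genes. Ucp2, an inner membrane carrier, had 45.5, 62.8 and 42.04 FPKM in the cKO hearts, against 41.2, 31.7 and 20.7 FPKM in the WT hearts (0.70 (SE 0.314), 0.44 without WT heart 3). The 34 genes of glycolysis, glycogen and pyruvate had a median of -0.15, or -0.074 without WT heart 3, and 0 members at an unadjusted p under 0.05. Their median was -0.12 with upper-quartile scaling and -0.077 with quantile normalization.

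Collagen and matrix genes had the largest median difference of any list of more than 10 genes, with cKO heart 2 far above the others. Of 34 members 32 were above 0, as were 46.2% of all tested genes, with a median of 0.56, while 0 had an unadjusted p under 0.05 and 0 kept their groups apart. Col1a1, the main fibrillar collagen, had 21.7, 169.9 and 18.3 FPKM in the cKO hearts, against 15.9, 60.4 and 7.73 FPKM in the WT hearts. Postn, periostin of activated fibroblasts, had 32.1, 411 and 29.02 FPKM in the cKO hearts, against 29.6, 138 and 8.71 FPKM in the WT hearts. Timp1, an inhibitor of matrix proteases, had 2.96, 47.2 and 2.76 FPKM in the cKO hearts, against 5.08, 4.81 and 0.772 FPKM in the WT hearts. In each, cKO heart 2 stood far above the rest, and cKO hearts 1 and 3 lay inside the range of the WT hearts.

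The heart named above was the highest for 31 of the 34 matrix genes. Their mean log2(FPKM + 1) was 3.46, 5.27 and 3.50 in the cKO hearts and 3.47, 4.22 and 2.92 in the WT hearts, with WT heart 2 second and WT heart 3 lowest. Without cKO heart 2 the median difference was -0.012, and without WT heart 3 it was 0.25. Without cKO heart 1, cKO heart 3 or WT heart 2 it was larger, 0.83, 0.83 and 0.89.

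Macrophage markers followed the same heart. Their median difference over 14 genes was 0.38, and -0.01 without cKO heart 2, which was the highest for 11 of them. C1qb, a complement component of macrophages, had 31.05, 95.3 and 34.3 FPKM in the cKO hearts, against 48.6, 33.3 and 26.2 FPKM in the WT hearts. The summed level of the markers was 144.9 to 362.8 FPKM in cKO and 134.2 to 214.4 FPKM in WT, and none stood at the floor. For the 14 fibroblast markers the median was 0.17, or 0.048 without cKO heart 2, with summed levels of 2280 to 3102 FPKM in cKO and 1767 to 2885 FPKM in WT. All cKO hearts lay above the WT hearts for 2 of these markers, against 3.44% of all tested genes. Tcf21, a fibroblast transcription factor, was 1 of the 2, at 16.8, 20.7 and 18.6 FPKM in the cKO hearts, against 13.9, 15.1 and 11.96 FPKM in the WT hearts. Interferon response genes (29 tested) and cell cycle genes (28 tested) had medians of 0.18 and 0.19, which were both 0.042 without cKO heart 2. The part of these cell types in the other differences was not tested.

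Genes of these lists were among those marked by the authors. Of the 86 genes that the authors' deposited table marked higher in cKO, 16 belong to the collagen and matrix list, and all 16 had their highest value in cKO heart 2. Over all 86 that heart was the highest for 79 (91.9%), cKO heart 1 for 3 and cKO heart 3 for 4. Of all tested genes 21.6% were highest in cKO heart 2, 14.3% in cKO heart 1 and 14% in cKO heart 3. The 86 were marked as higher in cKO on these same libraries, a choice that itself favours a cKO heart as the highest. The range of cKO hearts 1 and 3 overlapped that of the WT hearts for 74 of them, and WT heart 2 lay above both for 46. For those counts the shares of all tested genes were not computed, so they are description only. For Spp1, osteopontin, the authors' deposited table gave 14.7 FPKM for cKO and 0.979 FPKM for WT (q = 0.00844); the single hearts had 0.929, 40.5 and 0.237 FPKM in the cKO hearts, against 1.18, 1.47 and 0.175 FPKM in the WT hearts. Cd74, the invariant chain of class II antigen presentation, was given as 129.6 FPKM for cKO and 76.6 FPKM for WT in the authors' deposited table, and the hearts had 84.002, 224 and 62.5 FPKM in the cKO hearts, against 60.7, 117 and 43.8 FPKM in the WT hearts. Ccr2, a receptor of recruited monocytes and also marked in the authors' deposited table, had 0.928, 8.77 and 0.746 FPKM in the cKO hearts, against 0.762, 1.68 and 0.350 FPKM in the WT hearts. These 3 genes were named after their values were seen.

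Here 84 of the 86 genes were tested. Of these 0 had a limma adjusted p under 0.05, 11 an unadjusted p under 0.05, and 7 kept their groups apart. Of all tested genes 1.82% were higher at that unadjusted p, and 3.44% had all cKO hearts above the WT hearts. The 84 genes had a median difference of 0.65 with all hearts and 0.077 without cKO heart 2, when 32 of them changed sign. No sign changed when any other single heart was left out, and the median then lay between 0.44, without WT heart 3, and 0.92, without cKO heart 3. The genes were marked by the authors on these same libraries, so their direction here is no independent evidence.

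The 7 genes marked higher by the authors' deposited table whose cKO hearts all lay above the WT hearts were Gdf15, Ucp2, Lgals1, Enpep, Igsf1, Nrtn and Enkur, named after their values were seen. Lgals1, galectin-1, had 393, 486 and 341 FPKM in the cKO hearts, against 252, 339 and 229 FPKM in the WT hearts, and its difference of 0.57 (SE 0.179) was 0.44 without cKO heart 2. Enpep, a peptidase that cleaves angiotensin, had 5.39, 6.42 and 5.05 FPKM in the cKO hearts, against 3.37, 3.66 and 2.40 FPKM in the WT hearts (0.68 (SE 0.213), 0.60 without that heart). Nrtn, a ligand of the GDNF family, had 38.9, 38.4 and 46.9 FPKM in the cKO hearts, against 18.5, 30.5 and 22.2 FPKM in the WT hearts (0.80 (SE 0.373), 0.85 without it). In Nrtn and Enkur the highest heart was cKO heart 3.

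Of the 31 genes marked lower by the authors' deposited table, all were tested, 0 had a limma adjusted p under 0.05, 16 an unadjusted p under 0.05, and 8 kept their groups apart. Of all tested genes 2.08% were lower at that unadjusted p, and 4.08% had all cKO hearts below the WT hearts. The 31 genes too were marked by the authors on these same libraries, so these counts are no independent evidence. WT heart 1 was the highest for 15 of the 31 genes and WT heart 3 for 15. The median difference was -0.74, and it lay between -1.02, without WT heart 2, and -0.56, without cKO heart 2; 3 genes changed sign without WT heart 1. Blood genes were among those highest in WT heart 1. S100a9 had 3.19, 4.75 and 5.73 FPKM in the cKO hearts, against 46.02, 2.09 and 2.26 FPKM in the WT hearts. Alas2, the heme enzyme of red cell precursors, had 6.70, 7.80 and 11.5 FPKM in the cKO hearts, against 25.2, 11.4 and 15.2 FPKM in the WT hearts. The 5 tested of 8 red cell markers were all below 0, with a median of -0.80, and of -0.50 without WT heart 1. Their summed level was 342.6 to 857.6 FPKM in cKO and 572.8 to 1350 FPKM in WT. Hbb-bs stood at the floor in cKO hearts 1 and 2 and WT hearts 2 and 3. Hbb-b1, a beta-globin entry outside the list, had 295, 342 and 633 FPKM in the cKO hearts, against 980, 450 and 725 FPKM in the WT hearts. How reads were shared between the globin entries was not tested. Of the 14 lymphocyte and neutrophil markers 4 were tested, with summed levels of 6.698 to 11.24 FPKM in cKO and 3.3 to 91.46 FPKM in WT, and S100a8 stood at the floor in WT heart 2. The part of blood in the other lower genes was not tested.

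The 8 genes marked lower in the authors' deposited table whose groups stayed apart were Lad1, Kcne1, Cdh20, Ctnnal1, Ctnna3, Eps8l1, Kcnd2 and Armc2, several of them named after their values were seen. Cdh20, a cadherin, passed the filter only through the WT hearts on PTU, where it was high. Ctnna3 is an alpha-catenin of the intercalated disc. Ctnna3 had 13.4, 6.44 and 17.6 FPKM in the cKO hearts, against 19.995, 19.3 and 21.8 FPKM in the WT hearts (-0.76 (SE 0.374), -0.38 without cKO heart 2). Kcnd2, a subunit of the transient outward current, had 2.86, 1.77 and 2.91 FPKM in the cKO hearts, against 3.81, 3.07 and 6.01 FPKM in the WT hearts (-0.57 (SE 0.301), -0.35 without WT heart 3). Dmd, dystrophin, also marked lower by the authors' deposited table, had 5.84, 4.26 and 12.8 FPKM in the cKO hearts, against 13.4, 10.9 and 17.2 FPKM in the WT hearts, so that cKO heart 3 lay inside the range of the WT hearts.

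**Figure D4:**
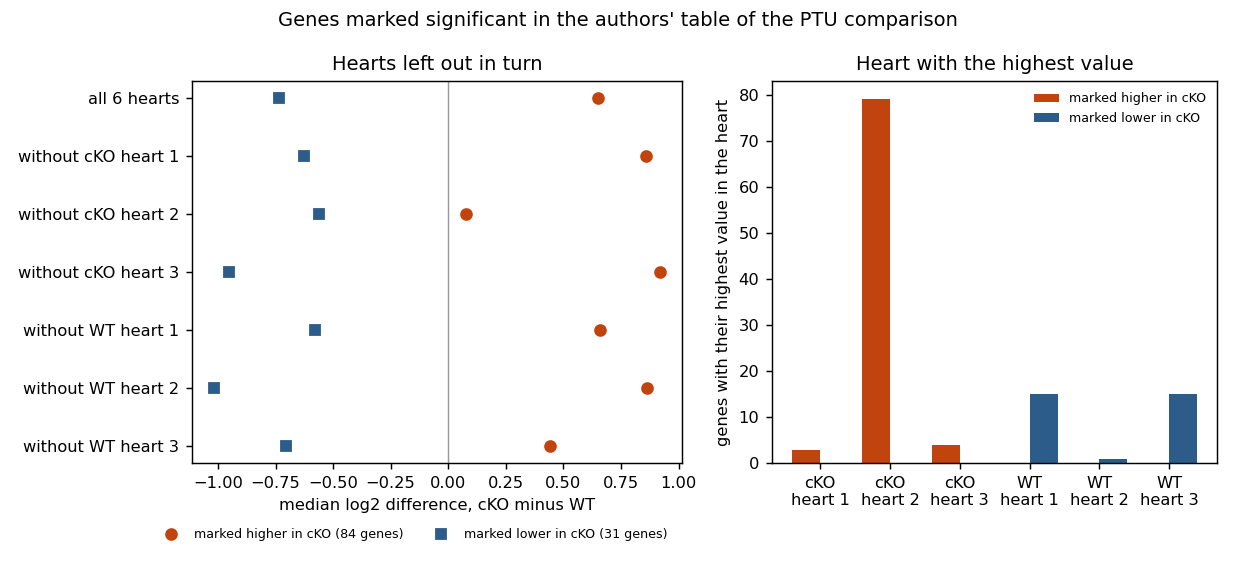
Left, median difference between cKO and WT on PTU (x axis, log2 scale) of the genes that the authors' deposited table marked higher (orange circles, 84 tested) or lower (blue squares, 31 tested) in cKO, with all 6 hearts and with each heart left out in turn. Right, number of those genes with their highest value in each heart, all 86 and 31 counted: the median of the higher genes is 0.65 with all hearts and 0.077 without cKO heart 2, the heart with the highest value for 79 of them.

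Among the 20 genes with the smallest p, most had modest differences and tight groups. For 19 of them the 3 cKO hearts did not overlap the 3 WT hearts, Cln6 being the exception, and all 20 had a limma adjusted p of 0.911. Groups were separate in either direction for 7.52% of all tested genes. The 20 were chosen for a small p in these same hearts, a choice that itself favours tight and separate groups. Ccdc69, which led the list, had 8.89, 7.56 and 7.34 FPKM in the cKO hearts, against 5.85, 5.78 and 4.21 FPKM in the WT hearts. Its difference was 0.51 (SE 0.118), with an interval from 0.26 to 0.76. Rgs11, a regulator of G protein signalling, had 2.32, 2.12 and 2.57 FPKM in the cKO hearts, against 0.668, 1.55 and 0.595 FPKM in the WT hearts (0.82 (SE 0.188)). Outside the cKO hearts on PTU, only WT heart 2 on PTU reached 1 FPKM. Rgs11 thus passed the filter through the group where it was high, which itself favours separate groups. Fam220a had 21.1, 18.5 and 20.9 FPKM in the cKO hearts, against 26.7, 26.1 and 27.5 FPKM in the WT hearts (-0.40 (SE 0.0927)); every cKO heart was lower, by a small amount. Man2a1, a Golgi mannosidase, had 11.4, 11.6 and 11.5 FPKM in the cKO hearts, against 9.61, 9.54 and 8.55 FPKM in the WT hearts (0.29 (SE 0.0821)), among the tightest groups of the 20.

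Others of these 20 have known roles in the secretory pathway, lipids or cell adhesion. Ern1, the sensor IRE1 of the unfolded protein response, had 3.16, 2.31 and 2.06 FPKM in the cKO hearts, against 3.40, 3.23 and 4.11 FPKM in the WT hearts (-0.39 (SE 0.115)). Pafah2, a phospholipase that acts on oxidized lipids, had 5.10, 6.60 and 6.01 FPKM in the cKO hearts, against 4.59, 3.92 and 4.61 FPKM in the WT hearts (0.36 (SE 0.0914)), and Cln6, a protein of the endoplasmic reticulum needed for lysosomes, had a difference of -0.48 (SE 0.130). Ctnnal1, an alpha-catenin relative, had 17.5, 15.3 and 20.4 FPKM in the cKO hearts, against 28.7, 21.6 and 28.1 FPKM in the WT hearts (-0.53 (SE 0.154)). Cdh20 had 0.548, 0.523 and 0.331 FPKM in the cKO hearts, against 1.08, 1.82 and 1.01 FPKM in the WT hearts (-0.64 (SE 0.163)). It reached 1 FPKM in no library outside the WT hearts on PTU. It thus passed the filter only through the group where it was high, which itself favours separate groups. Clec10a, a lectin of macrophages and dendritic cells, had 2.51, 3.73 and 2.89 FPKM in the cKO hearts, against 1.17, 2.41 and 1.32 FPKM in the WT hearts (0.64 (SE 0.179)); its groups did not overlap, while those of all 14 macrophage markers did. The other members were Tmem29, Gm28042, E130218I03Rik and Rnaseh2c, with differences of 0.72, 0.63, 0.47 and 0.27, and Dbil5, Plekhh1, Mif4gd and Fam19a5, with -0.71, -0.51, -0.38 and -0.38. Gm28042 shares its strand and position with Jmjd7 and Pla2g4b, so its reads are uncertain.

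The genotype difference on PTU was then set beside the differences on the other treatments, with which it shares no library. limma called 0 genes for cKO against WT on PTU with T3 (434 at an unadjusted p under 0.05, 3.45%) and 0 on chow (394, 3.13%). The test of the difference between treatments also called 0 genes: PTU minus PTU with T3 had 821 at an unadjusted p under 0.05 (6.52%) and a smallest adjusted p of 0.590, and PTU minus chow had 805 (6.4%) and 0.739. At an unadjusted p under 0.05 on both treatments, 7 genes differed in the same direction and 25 in opposite directions on PTU and on PTU with T3, and 2 and 39 on PTU and on chow. All 3 cKO hearts lay above the WT hearts for 606 genes (4.81%) and below them for 469 (3.73%) on PTU with T3, and for 517 (4.11%) and 554 (4.4%) on chow. Groups were separate in the same direction on all 3 treatments for 0 genes.

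Enkur and Lad1 had the smallest p for PTU minus chow, and on PTU they lay on opposite sides. Enkur, a gene of cilia and sperm tails (chromosome 2, 21180731 to 21205365), had 8.41, 6.10 and 9.79 FPKM in the cKO hearts, against 2.96, 5.65 and 3.21 FPKM in the WT hearts on PTU. On chow it had 1.01, 0.528 and 2.27 FPKM in the cKO hearts and 4.65, 3.31 and 2.82 FPKM in the WT hearts. Every cKO heart was above every WT heart on PTU and below on chow, and the differences were 0.90 and -1.07 (PTU minus chow 1.97, SE 0.377, limma adjusted p = 0.739). Lad1, ladinin, an anchoring filament protein (chromosome 1, 135818598 to 135833342), had 3.73, 2.58 and 4.66 FPKM in the cKO hearts, against 9.04, 5.18 and 7.72 FPKM in the WT hearts on PTU. Its chow values were 1.70, 3.09 and 2.32 FPKM in the cKO hearts and 0.520, 0.566 and 1.78 FPKM in the WT hearts, so that cKO was lower on PTU and, with overlap, higher on chow (-0.83 and 0.82; PTU minus chow -1.66, SE 0.332). Kcne1 had the same signs, -0.74 on PTU and 0.82 on chow, with chow values of 2.64, 5.27 and 3.04 FPKM in the cKO hearts and 1.44, 0.818 and 2.75 FPKM in the WT hearts. Egf, a growth factor, had -0.36 and 0.69, and Cd28, a costimulatory receptor of T cells, had -0.35 and 0.58.

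For PTU minus PTU with T3, antigen presentation genes were among the 5 genes with the smallest p. B2m, the light chain of class I molecules, had 182, 235 and 204 FPKM in the cKO hearts, against 149, 156 and 149 FPKM in the WT hearts on PTU, where all cKO hearts were higher. On PTU with T3 it had 202, 229 and 261 FPKM in the cKO hearts and 643, 325 and 346 FPKM in the WT hearts, where all were lower and WT heart 1 was the highest. The differences were 0.44 and -0.86 (PTU minus PTU with T3 1.30, SE 0.281, limma adjusted p = 0.696). H2-K1, a class I heavy chain, had 68.9, 83.2 and 80.3 FPKM in the cKO hearts, against 63.8, 57.4 and 49.5 FPKM in the WT hearts on PTU (0.44), and 74.6, 82.6 and 86.1 FPKM in the cKO hearts and 269.7, 112 and 134 FPKM in the WT hearts on PTU with T3 (-0.97). The peptide transporter Tap1 had 0.32 and -0.91. The remaining genes were E130218I03Rik, with 0.47 and -0.53, and Fam220a, with -0.40 and 0.21. Without cKO heart 1 on PTU, E130218I03Rik was called for this difference.

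Of 41 gene lists, 21 had a median on PTU with the sign opposite to both other treatments, 14 to 1 of them, and 6 had the same sign on all 3, among them the atrial markers (-0.11 on PTU, -0.12 on PTU with T3 and -0.10 on chow). Many of these medians lie close to 0. The median of all tested genes was -0.012 on PTU, 0.015 on PTU with T3 and 0.0039 on chow. It thus also had the sign on PTU opposite to both other treatments. Collagen and matrix genes had a median difference of 0.56 on PTU, -0.42 on PTU with T3 and -0.29 on chow. For cardiomyocyte markers the medians were -0.37, 0.16 and 0.18, and for oxidative phosphorylation genes -0.16, 0.18 and 0.10. Interferon response genes had 0.18, -0.31 and -0.063. The genes marked higher on PTU by the authors' deposited table had medians of -0.38 on PTU with T3 and -0.25 on chow, and those marked lower had 0.12 and 0.36. These medians are descriptions, and no difference between treatments was tested for a list.

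**Figure D5:**
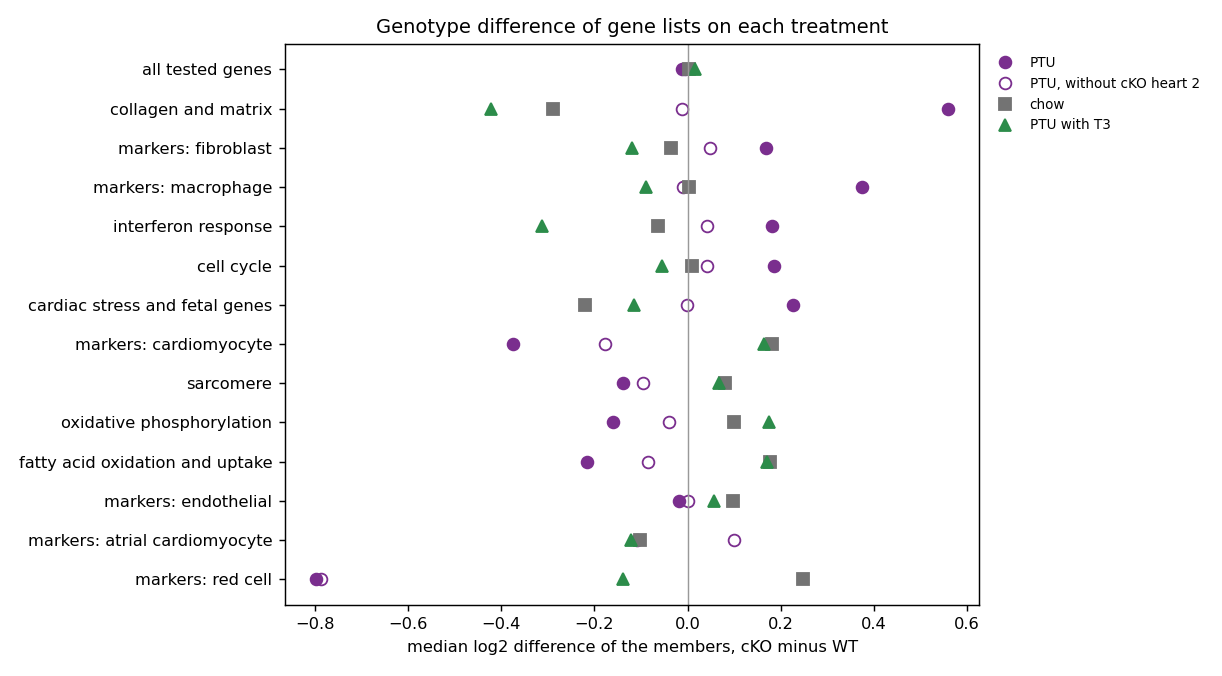
Median difference between cKO and WT hearts (x axis, log2 scale) of the members of each list on PTU (filled circles), on PTU without cKO heart 2 (open circles), on chow (squares) and on PTU with T3 (triangles). Collagen and matrix genes move to -0.012 when cKO heart 2 is left out, against 0.56 with all hearts, and cardiomyocyte markers move to -0.18, against -0.37.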

How the data were processed

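PolyA libraries from frozen hearts were made with a TruSeq kit, version 2, per the labels' protocols, and Bowtie2, Cufflinks and the build mm10 are listed in the submitters' processing notes. The authors deposited FPKM values for 24341 genes, 1 column per library, and a table of the PTU comparison that holds, per the file headers, group values in FPKM and p-values with q-values. The 2 genes with failed estimates (Cacna2d1, Trip10) were left out, and 152291 values stood at a floor of 0.01.

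From these values, the 12587 genes that reached 1 FPKM in 3 or more of 18 libraries were kept and log2(FPKM + 1) was fitted with 6 group means in limma 3.58.1 (R 4.3.3; trended prior, robust estimation, 12 residual degrees of freedom). Benjamini-Hochberg adjustment ran over all tested genes, and adjusted p-values are from this fit unless named as the authors'. The fit was tested on simulated data. Absolute depth per library is unknown, so no counting interval was given. The use of strand in counting is unknown: not given in the sources used here. Positions are from GENCODE M21 (GRCm38, which is mm10); 96.0% of tested genes had a unique match by symbol. Replicate numbers follow the order of the samples and pair nothing.

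The gene panel, the gene lists and the comparison were chosen with earlier results of these data known. Named genes are the panel, the 20 genes with the smallest p on PTU (as under 10 were called) and the 5 with the smallest p in each difference between treatments; others were named after their values were seen, among them list members and genes of the authors' deposited table. Some members of the lists are not reported here by name. Alternatives covered the pseudocount, the filter, scaling, the prior, sample weights, atrial markers, each PTU heart left out, the 6 PTU hearts alone and a block of title numbers.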

Additional observations from a re-analysis of the deposited data

How the results depend on the processing

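The count of 0 genes for cKO against WT on PTU held under every alternative run except 2. It was 4 with all 18807 genes above the floor in at least 1 library (Gm21992, Gm5294, Spata45 and Tepp, 3 higher and 1 lower) and 1 without cKO replicate 3 (Ssbp2, lower), so that it ran from 0 to 1 with 1 heart left out. With all genes above the floor the counts were 1 on PTU with T3, 2 on chow, 1 for PTU minus PTU with T3 and 3 for PTU minus chow. With 1 PTU heart left out the count ran from 0 to 1 on PTU with T3 (Lgals3bp, without cKO replicate 2 on PTU) and from 0 to 1 for PTU minus PTU with T3 (E130218I03Rik, without cKO replicate 1). Genes at an unadjusted p under 0.05 on PTU numbered 491, but 265 without cKO replicate 2, 268 without WT replicate 3, 1114 without cKO replicate 3, 1077 without WT replicate 2 and 846 with sample weights; the cause was not tested.

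Of 797 values of 45 named genes over 18 alternatives, 782 kept their sign and 0 were called, but 93 turned or moved by over 1.5 times, 17 of them without cKO replicate 2 and 11 without WT replicate 3. A pseudocount of 0.1 moved 8 by that much, among them Cdh20 (-1.28), Gm28042 (1.33), Dbil5 (-1.34), Plekhh1 (-0.99), Rgs11 (1.34) and Hr (0.57). Sample weights moved 10, among them Nppa (0.35) and Myh6 (-0.75). Signs turned for 6 genes. Cdk19 was 0.0051 with upper-quartile scaling, 0.0021 with sample weights, 0.011 with the block, and -0.057 to 0.044 with 1 heart left out. Thrb was 0.00069 with upper-quartile scaling, 0.016 with sample weights, 0.021 without the heart highest in atrial markers of each group, and -0.12 to 0.051 with 1 heart left out. Ccnc was 0.047 with sample weights and -0.13 to 0.025 with 1 heart left out. With 1 heart left out Med12l ran from -0.0025 to 0.28, Ucp3 from -0.044 to 0.37 and Myh6 from -0.73 to 0.22.

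No paired analysis was possible because the labels give no replicate number shared by cKO and WT hearts. A fit of the 6 PTU hearts with the range of the title number as a block called 0 genes, with 304 at an unadjusted p under 0.05. The range 832 to 834 holds cKO hearts 1 and 2 and WT heart 2, and the range 811 to 813 holds cKO heart 3 and WT hearts 1 and 3. Without cKO heart 3 all remaining cKO hearts lie in 1 range, and without WT heart 2 all remaining WT hearts do. What the title numbers stand for is not stated. With 3 hearts a group an exact permutation test of a single gene cannot go below 0.1. No read totals come with FPKM, and the depth behind genes near 1 FPKM is unknown.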

Other observations

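Some gene groups outside the account above had single members with separate groups. Of 19 tested nuclear receptors and coactivators of metabolism 16 had a difference below 0, against 53.8% of all tested genes. Their median was -0.14, or -0.065 without cKO heart 2, -0.05 without WT heart 3 and -0.22 without WT heart 2, and Ppargc1b, a coactivator of mitochondrial genes, had 4.61, 3.87 and 3.21 FPKM in the cKO hearts, against 5.09, 5.13 and 5.43 FPKM in the WT hearts (-0.35 (SE 0.136)). Of 19 cardiac transcription factors 14 were below 0, with a median of -0.067, or -0.023 without cKO heart 2. At an unadjusted p under 0.05, 3 were lower, against 2.08% of all tested genes, and 0 were higher. The lower ones were Gata4 (-0.14 (SE 0.0638)), Gata6 (-0.22 (SE 0.103)) and Irx4, a ventricular factor (-0.21 (SE 0.0821)). In the cell cycle list 22 of 28 genes were above 0, against 46.2% of all tested genes. All cKO hearts lay above the WT hearts for 4 of the list, against 3.44% of all tested genes, and below them for 1, against 4.08%. Among these Tyms, thymidylate synthase, had 1.05, 1.18 and 1.13 FPKM in the cKO hearts, against 0.673, 0.903 and 0.450 FPKM in the WT hearts, and Cdkn1b, the inhibitor p27, had 17.1, 15.4 and 17.2 FPKM in the cKO hearts, against 18.8, 17.8 and 20.9 FPKM in the WT hearts: every cKO heart was above every WT heart for Tyms and below for Cdkn1b. These genes were named after their values were seen, and the limma adjusted p of each was 0.911.

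Schwann cell and interferon genes gave a few more such cases. Of 7 tested nerve and Schwann cell markers 5 were above 0 and 2 below, with a median of 0.26, or 0.089 without WT heart 1. All cKO hearts lay above the WT hearts for 1 of them, against 3.44% of all tested genes. This gene, Mbp, a myelin protein, had 3.81, 3.25 and 3.23 FPKM in the cKO hearts, against 2.60, 3.11 and 2.10 FPKM in the WT hearts (0.31 (SE 0.116)). Of 29 interferon response genes 24 were above 0, against 46.2% of all tested genes. All cKO hearts lay above the WT hearts for 3 of the list, against 3.44% of all tested genes, and below them for 1, against 4.08%. Irf1, a transcription factor of the interferon response, had 11.03, 11.04 and 12.99 FPKM in the cKO hearts, against 9.85, 9.66 and 8.45 FPKM in the WT hearts, higher in all cKO hearts, whereas Rsad2, an antiviral enzyme of the same response, had 1.64, 1.90 and 2.25 FPKM in the cKO hearts, against 2.39, 3.33 and 2.68 FPKM in the WT hearts, lower in all cKO hearts. Medians of the endothelial list (-0.018), the circadian list (-0.036) and the list of the integrated stress response (0.0082) lay close to that of all tested genes (-0.012).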
